A study of Rattus norvegicus with 5 samples.

Results

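Stromal cells of GFP control cultures were compared between day 14 and day 3 after virus. They are the collagen-rich cells of ventricular cultures that had received an adenovirus carrying GFP, and they numbered 7146 of the 14552 cells with at least 500 detected genes in the GFP libraries, and of 36996 such cells in the series. A cell was taken as stromal when its summed Col1a1, Col1a2 and Col3a1 level, in CPM (UMIs of a gene scaled to a fixed total, where a UMI marks 1 captured RNA molecule), exceeded 2 times its summed level of the myocyte genes Tnnt2, Actc1 and Myh6. By this choice 2919 stromal cells came from day 3 and 4227 from day 14.

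The series profiled single ventricular cells of wild type Sprague dawley rats at P2, which the labels describe as primary cells that include both myocytes and non-myocytes. Cultures received Adeno-GFP for 3 days or 14 days, or Adeno-TBX18 for 3 days or 14 days; the other library, with Adeno-TBX18 and A83-01, enters here only in the cell total. No promoter for either virus is named, and how many animals or dishes went into a library is not given in the sources used here. Each group was 1 library, so no test between days was possible, no p-value is given, and every interval below is a 95% interval that covers counting error only, not the difference between cultures. The tables of the 2 days also differed in unit, in the genes they list and in their range of cells, and these differences cannot be told apart from culture time.

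Fibroblasts and related stromal cells of the heart build the collagen scaffold between the myocytes. Type I collagen is assembled from the chains that Col1a1 and Col1a2 encode, and type III collagen from the chain that Col3a1 encodes; together they form most of the fibrillar matrix of the ventricle. Stromal cells divide in culture whereas cardiac myocytes hardly do, and fibroblasts kept on a stiff dish are known to take on a matrix-producing, contractile state that TGF-beta signalling promotes. Tnnt2 encodes cardiac troponin T, Actc1 cardiac alpha-actin and Myh6 the alpha-myosin heavy chain, all parts of the myocyte's contractile apparatus.

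The files list genes by Ensembl ID without names, and 0 of their 17060 IDs could be paired with a symbol. The 6 genes that define the class and the virus features are therefore the features described by name. Markers of endothelial cells, leukocytes, pericytes, epicardial cells and glia could not be read, and these cells may lie within a class defined by collagen alone.

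Only Col1a2 of the 3 collagens had an entry in the RefSeq promoter table used here. Its promoter is shown because the gene's level differed 3.01-fold between the days, beside 3.24-fold for its type I partner Col1a1. The stretch lies at chr4:33518307-33518606 on the + strand of GRCr8, a build other than the Rnor_6.0 of the files, and runs from 250 bases before the annotated start to 50 after it.
Col1a2: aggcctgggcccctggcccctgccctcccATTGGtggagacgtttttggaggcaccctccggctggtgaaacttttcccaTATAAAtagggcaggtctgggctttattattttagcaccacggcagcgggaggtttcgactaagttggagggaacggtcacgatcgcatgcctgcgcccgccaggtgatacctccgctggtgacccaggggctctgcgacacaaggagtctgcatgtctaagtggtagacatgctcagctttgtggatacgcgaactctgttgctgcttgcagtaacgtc
Capitals mark 2 matches. ATTGG, which is the CCAAT box read on the other strand, begins 221 bases before the start, and the TATA box letters TATAAA begin 170 bases before it. GGGCGG, the GC box, had no match on either strand. Among 33469 promoters of the same length, CCAAT or its reverse was present in 37.5%, TATAAA in 14.2% and GGGCGG in 33.1%, so the matches are descriptions of letters and not of bound sites.

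Stromal cells made up 35.9% of the cells at day 3 (2919 of 8128; exact Clopper-Pearson interval 34.9 to 37.0%) and 65.8% at day 14 (4227 of 6424; 64.6 to 67.0%). Cells of the myocyte class, in which the myocyte gene sum exceeded 2 times the collagen sum, made up 59.5% and 27.7%, and the cells between the classes 4.59% and 6.46%. A further 731 barcodes at day 3 had under 500 genes, whereas the cells of the day 14 table all lay between 1997 and 5591 genes, with 33974 UMIs at most. With a stricter ratio of 10 the stromal shares were 32.6% and 61.2%. Within the range of genes and UMIs of the day 14 table the day 3 share was 35.9% as well, over 6696 cells; cells that an unstated filter may have removed before deposit were not analysed here.

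**Figure D1:**
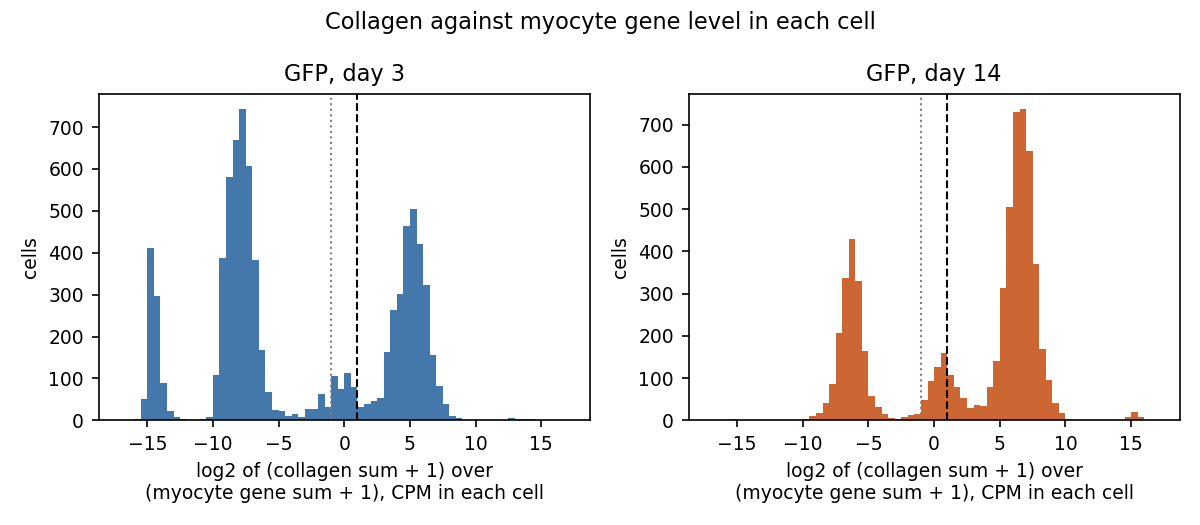
Histograms of single cells of the GFP libraries at day 3 and day 14, with the log2 of each cell's collagen sum over its myocyte gene sum (CPM, 1 added to each) on the x axis and the number of cells on the y axis; cells right of the dashed line are stromal apart from the 1 added, and cells left of the dotted line are of the myocyte class. Stromal cells formed a peak apart from the threshold at both days and held 35.9% of cells at day 3 and 65.8% at day 14.

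Few stromal cells lay near the threshold. At day 3, 20 stromal cells had a ratio of 2 to 2.5 and 47 cells just outside had a ratio of 1.6 to 2; at day 14 these were 85 and 90 cells. The day 3 cells just inside had a median collagen sum of 8962 CPM and a median myocyte gene sum of 4101 CPM, against 11838 and 6654 CPM just outside. The day 14 cells just inside had 29916 and 13445 CPM, against 27487 and 15515 CPM just outside. Cells with a ratio of 10 or less were 272 of the stromal cells at day 3 (9.32%) and 296 of the 4227 at day 14.

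Genes other than the 6 placed most of these cells on the stromal side as well. For this check 100 stromal and 100 myocyte genes were taken from the TBX18 library of the same day, leaving out the 6 genes, so that the genes were not chosen on the cells described. The stromal genes held more UMIs than the myocyte genes in 2902 of 2919 stromal cells at day 3 (99.4%) and in 4038 of 4227 at day 14 (95.5%). In the myocyte class this was so for 3.16% and 0.673% of cells. A small group of stromal cells had little collagen, with a sum under 3000 CPM, 26 cells at day 3 (0.891%) and 53 at day 14 (1.25%). At day 3 the stromal genes of these low-collagen cells stood at a median of 39643 CPM, near the 43667 CPM of the others, but at day 14 at 7134 CPM against 30165 CPM.

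The stromal cells held 76539205 UMIs at day 3 and 70204522 at day 14. A stromal cell had a median of 24535 UMIs and 4060 genes at day 3, and 15920 UMIs and 3617 genes at day 14. Cells of the day 14 table held 33974 UMIs at most, and the part of this limit in the lower medians was not tested. The GFP libraries shared 14 cell barcodes, 4 of them stromal in both, and any 2 libraries of the series shared 7 to 20. The TBX18 libraries held 2922 stromal cells at day 3 (45.0%) and 7027 at day 14 (84.3%), chosen by the same 6 genes.

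All 3 collagens stood about 3 times higher in stromal cells at day 14 than at day 3. Because the cells were chosen with these genes, their levels describe the class and are no evidence of a difference on their own. Col1a1 stood at 5157 CPM at day 3 and 16659 CPM at day 14. Col1a2 stood at 3817 and 11479 CPM, and Col3a1 at 4308 and 12052 CPM. Over the genes listed in both tables, the day 14 to day 3 ratio was 3.24-fold for Col1a1 (log2 1.69, 1.69 to 1.70), 3.01-fold for Col1a2 (1.59, lower bound 1.58) and 2.80-fold for Col3a1 (1.49, 1.48 to 1.49). The intervals of the 3 genes did not overlap, but they leave out the difference between cultures, so the order of the ratios was not tested.

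Single cells showed the same order. The median cell had 4686 CPM of Col1a1 at day 3 and 16042 CPM at day 14; for Col1a2 the medians were 3528 and 10980 CPM, and for Col3a1 4000 and 11764 CPM. The collagen sum of a cell had a median of 12457 CPM at day 3, with 90% of cells between 5678 and 21628 CPM, and a median of 39281 CPM at day 14, with 90% of cells between 22343 and 58058 CPM. The distributions barely overlapped: 95.4% of the day 14 cells lay above the 95th percentile of day 3, and 0.103% of the day 3 cells lay above the day 14 median. In UMIs, a median cell held 304 collagen UMIs at day 3 and 633 at day 14, while its other UMIs were 24221 and 15279, so the collagen count itself was higher in cells with fewer other molecules.

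**Figure D2:**
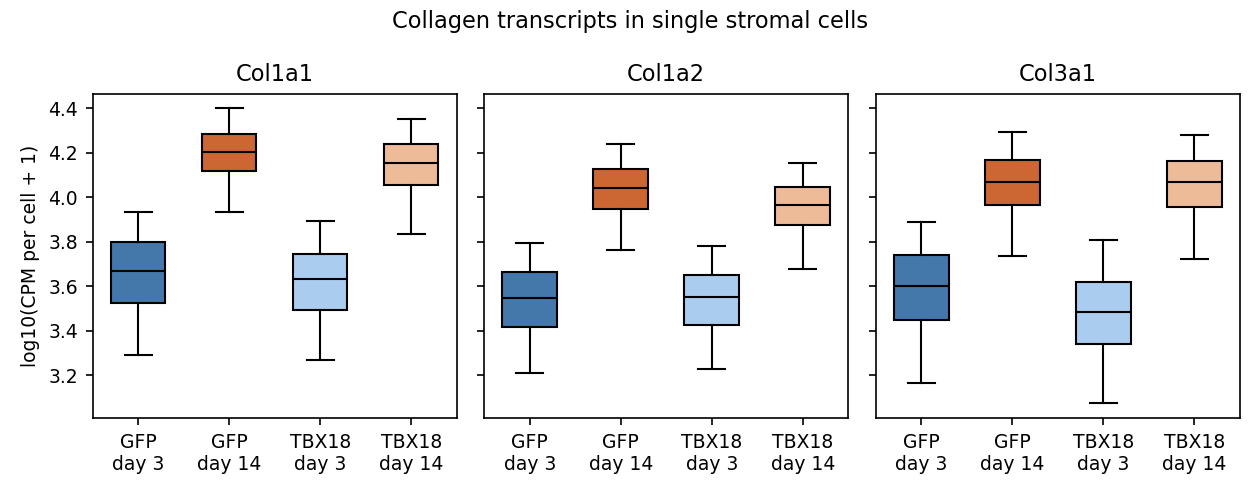
Box plots of Col1a1, Col1a2 and Col3a1 in single stromal cells, as log10 of CPM per cell plus 1, for the GFP and TBX18 libraries at day 3 and day 14; boxes span the quartiles, lines mark medians and whiskers reach the 5th and 95th percentiles of cells. In the GFP libraries the medians were 4686 and 16042 CPM for Col1a1, 3528 and 10980 CPM for Col1a2, and 4000 and 11764 CPM for Col3a1.

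Relative to its mean, the collagen sum varied less from cell to cell at day 14, but in CPM its spread was wider. The 10th and 90th percentiles were 6715 and 19507 CPM at day 3, and 26798 and 53574 CPM at day 14. This sum chose the cells, so its spread is a description. The coefficient of variation over cells was 40.6% at day 3 and 30.8% at day 14. With every cell thinned to 5000 UMIs, it was 41.6% and 31.4%, of which counting alone would give 12.5% and 7.08%. The 3 genes varied together from cell to cell. Spearman's rho over cells, which share a library and a total, was 0.88 at day 3 and 0.78 at day 14 between Col1a1 and Col1a2, 0.71 and 0.46 between Col1a1 and Col3a1, and 0.68 and 0.42 between Col1a2 and Col3a1. After thinning, the values were 0.72 and 0.70 for the type I pair, 0.59 and 0.43 for Col1a1 with Col3a1, and 0.54 and 0.38 for Col1a2 with Col3a1. Pearson's r on CPM went the other way for type III, at 0.71 and 0.79 for Col1a1 with Col3a1 and 0.66 and 0.72 for Col1a2 with Col3a1, so the measures gave no single direction.

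TBX18 cultures, which share no library with the GFP cultures, held similar collagen differences. Their stromal cells had a median collagen sum of 10991 CPM at day 3, against 35769 CPM on day 14. The ratio was 3.19-fold for Col1a1, 2.57-fold for Col1a2 and 3.54-fold for Col3a1. The order of the genes differed between the viruses, with Col1a1 at the top in GFP stromal cells and Col3a1 in TBX18 stromal cells.

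Collagen UMIs were scarce in the myocyte class of the same GFP libraries, but differed by similar factors there. Col1a1 stood at 60.8 CPM at day 3 and 255 CPM at day 14 in the myocyte class (log2 2.07), Col1a2 at 45.0 and 134 CPM (1.57), and Col3a1 at 63.5 and 190 CPM (1.59). Stromal minus myocyte class, the log2 ratios differed by -0.36 for Col1a1, 0.03 for Col1a2 and -0.09 for Col3a1. The class was defined to hold little collagen, and RNA free in the cell suspension can add such UMIs; its part was not tested.

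The myocyte genes also chose the cells, so that their low level in stromal cells restates the choice, and their values are given as a description. Because a cell passes with a myocyte gene sum under its collagen sum divided by 2, the limit on these genes was itself higher at day 14, when the collagen sum was higher. Actc1 stood at 74.7 CPM at day 3 and 356 CPM at day 14, a log2 ratio of 2.25 (2.21 to 2.30), and Myh6 at 78.2 and 363 CPM, a ratio of 2.22 (2.18 to 2.26). Tnnt2 stood at 393 and 570 CPM, a ratio of 0.54 (0.52 to 0.56), which turned to -0.11 among cells with a collagen sum over 10 times the myocyte gene sum. Under that stricter choice the ratios were 1.45 for Actc1 and 1.25 for Myh6, so the stromal cells closest to the threshold held much of their difference.

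Most stromal cells had less of these genes than the sums imply. The median cell had 42.5 CPM of Actc1 at day 3 and 114 CPM at day 14, 41.0 and 86.6 CPM of Myh6, and 249 and 195 CPM of Tnnt2. The myocyte gene sum had a median of 353 CPM at day 3 and 430 CPM at day 14, but its 95th percentile was 1300 CPM and 5805 CPM. The rule's limit was higher at day 14, and its part in this longer tail was not tested. Relative to the myocyte class of the same library, stromal Tnnt2 stood at 3.89% at day 3 and 4.93% at day 14, Actc1 at 1.43% and 3.42%, and Myh6 at 1.20% and 3.02%. In the myocyte class itself the log2 ratios were 0.19 for Tnnt2, 1.00 for Actc1 and 0.89 for Myh6. In TBX18 stromal cells they were -0.13, 0.51 and 1.00.

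**Figure D3:**
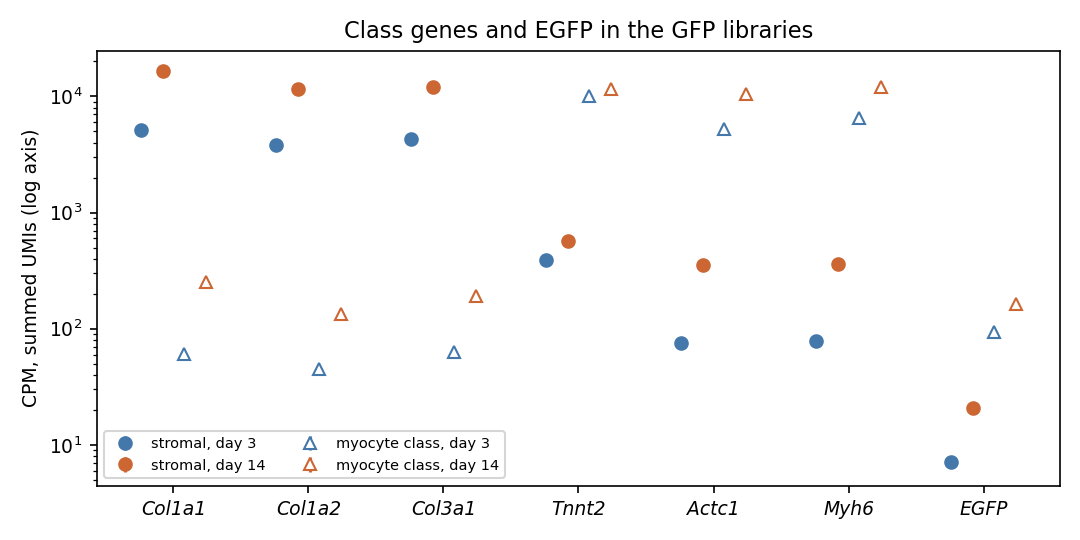
Level of the 6 genes that define the classes and of EGFP, in CPM of summed UMIs on a log axis, in stromal cells (circles) and the myocyte class (triangles) of the GFP libraries at day 3 (blue) and day 14 (orange), with exact Poisson intervals that are smaller than most symbols. Each collagen was about 3 times higher in stromal cells at day 14, and stromal Actc1 and Myh6 were higher but stayed at 3.42% and 3.02% of the myocyte class; the Tnnt2 difference turned to -0.11 on the log2 scale under the stricter ratio of 10.

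EGFP, the reporter read in the GFP libraries, was a minor transcript of stromal cells. It stood at 7.19 CPM at day 3 (550 UMIs, exact Poisson interval 6.60 to 7.81) and 20.9 CPM at day 14 (1466 UMIs, 19.8 to 22.0), a log2 ratio of 1.54 (1.40 to 1.69). A UMI of EGFP was found in 8.32% of stromal cells at day 3 and 12.6% at day 14. With cells thinned to 5000 UMIs, which left out 18 and 2 shallower cells, the shares were 2.38% and 5.94%. The myocyte class held 92.9 and 162 CPM, and 25.1% and 28.8% of its thinned cells had a UMI, so stromal cells had 7.74% of the myocyte class level at day 3 and 12.9% at day 14. RNA free in the suspension can give a low share of cells with a UMI, and its part was not tested; EGFP had 0 UMIs in the stromal cells of the TBX18 libraries.

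Stromal cells with an EGFP UMI were deeper. A deeper cell is more likely to show a UMI of any gene, and the part of depth was not tested. At day 3 the 243 such cells had a median of 31561 UMIs and a collagen sum of 13862 CPM, against 24146 UMIs and 12315 CPM in the 2676 without. At day 14 the 533 such cells had 17958 UMIs and 40420 CPM, against 15670 UMIs and 39118 CPM in the 3694 without. The median myocyte gene sum at day 14 was 475 CPM in cells with EGFP and 425 CPM in those without. Its 90th percentile was 11561 CPM in cells with EGFP and 1070 CPM in those without, and 20.8% against 5.01% of them had a collagen sum of at most 10 times the myocyte gene sum. The difference was smaller at day 3, where these shares were 10.7% and 9.19% and the 90th percentiles 1113 and 945 CPM. The day 3 median was lower in cells with EGFP, at 324 against 354 CPM. Without the cells of a ratio of 10 or less, the EGFP log2 ratio of the days was 1.21. ZsGFP and hTBX18, the features of the other virus, had 0 UMIs in GFP stromal cells. Their exact Poisson intervals reach up to 0.0482 CPM (day 3) or 0.0525 CPM (day 14).

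Over all genes, more stood at least 2-fold higher at day 14 than lower. Among the 6887 genes whose 2 libraries averaged 10 CPM or more, 1330 were at least 2-fold higher at day 14 (19.3% of the genes compared) and 611 at least 2-fold lower (8.87%), on log2 of CPM plus 0.5. These counts describe 2 libraries, and the 3 collagens, Actc1 and Myh6, which chose the cells, are among the 1330. The split depended on the scaling: with median-of-ratios scaling, which moved the median log2 ratio of all genes by -0.15, the counts were 1024 and 866, so genes higher at day 14 were 54.2% of the calls in place of 68.5%. The median log2 ratio over the genes was 0.15 with a standard deviation of 1.13, and 71.8% of genes lay within 2-fold. Differences of 4-fold or more were reached by 284 genes upward and 115 downward, and those of 8-fold or more by 104 and 26.

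The named genes fell at different places in that distribution. The ratio of Col1a1 was above that of 93.5% of the genes, Col1a2 above 92.5%, Col3a1 above 91.2% and EGFP above 91.1%. Actc1 and Myh6 were above 96.9% and 96.7%, and Tnnt2 above 64.7%. Col1a1 and its partners were therefore high but not extreme in their ratio, while few genes were as abundant.

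Genes higher at day 14 were found at every level of abundance. They were 717 of 3169 genes between 10 and 30 CPM (22.6%), 404 of 2346 up to 100 CPM (17.2%), 126 of 883 up to 300 CPM (14.3%), 64 of 327 up to 1000 CPM (19.6%) and 19 of 162 above that (11.7%). The median log2 ratio of all genes was 0.38 in the first of these groups and -0.33 in the last. Genes lower at day 14 were 6.72% of the first group and 14.2% of the last, where 23 were lower and 19 higher. As the choice of these genes fixes the direction, what follows gives only their weight in the cell: genes at least 2-fold higher held 7.29% of stromal UMIs at day 3 and 23.6% at day 14, and genes at least 2-fold lower held 16.5% and 5.98%. The 3 collagens alone held 1.33% and 4.03%. The 10 most abundant genes held 8.18% at day 3 and 11.3% at day 14, yet the number of genes that held 50% of the UMIs was 173 and 194. In cells thinned to 5000 UMIs, a gene higher at day 14 was found in a median of 5.93% of cells at day 3 and 17.3% at day 14, and a gene lower at day 14 in 25.6% and 9.89%.

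**Figure D4:**
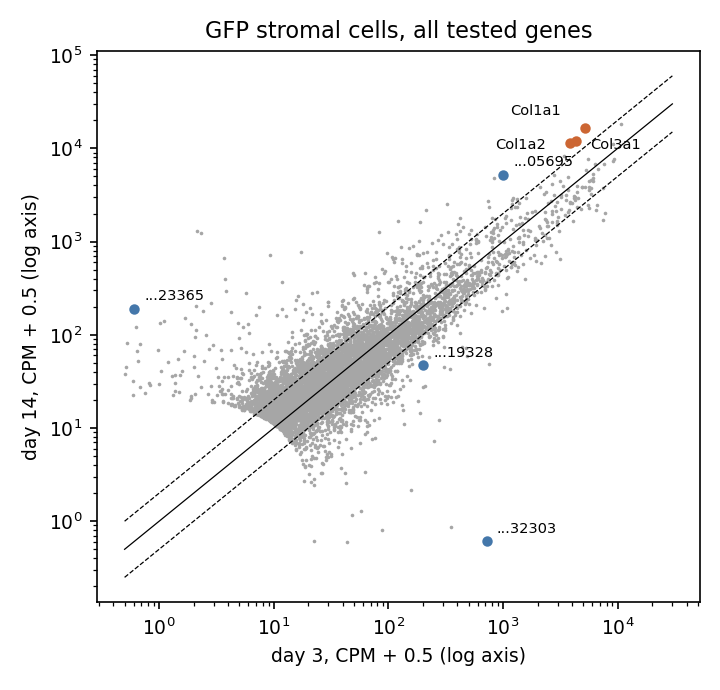
Each of the 6887 genes compared in GFP stromal cells, with its level at day 3 on the x axis and at day 14 on the y axis (CPM plus 0.5, log axes); the solid line marks equal levels, dashed lines 2-fold, orange points the 3 collagens and blue points the 4 genes given by the last digits of their Ensembl ID. The collagens lie among the most abundant genes above the upper dashed line, where 1330 genes lie, and 611 lie below the lower one.

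The gene ranked first in each direction, by the end of its counting interval nearest 0, differed by about as much in the myocyte class as in stromal cells. ENSRNOG00000023365 had 8 UMIs in stromal cells at day 3 and 13303 at day 14, that is 0.105 and 189 CPM, a log2 ratio of 10.83 (9.85 to 12.04). Its ratio was 10.66 in the GFP myocyte class and 9.06 in TBX18 stromal cells. ENSRNOG00000032303 had 54932 UMIs at day 3 and 8 at day 14, that is 718 and 0.114 CPM, a log2 ratio of -12.62 (-13.83 to -11.64). Its level in the GFP myocyte class was 254 CPM at day 3 and 0.0375 CPM at day 14. Both genes were nearly absent on 1 of the 2 days and common on the other, in the myocyte class and in stromal cells alike.

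Other extreme genes did so in part. Of the 104 genes at least 8-fold higher at day 14, 53 were at least 8-fold higher in stromal cells and in the myocyte class of both viruses, and these included all 20 of the 20 ranked first. Of the 26 genes at least 8-fold lower, 11 were so in all 4 comparisons, and 10 of the 20 ranked first. The classes share libraries, so this overlap is a description. Features listed numbered 15243 at day 3 and 16900 at day 14, of which 15077 were shared by the GFP tables; the shared ones held 99.998% and 99.81% of stromal UMIs. Differences that all classes share cannot be told apart from differences between the tables of the 2 days.

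A comparison with the myocyte class of the same libraries takes out part of what both classes share. The log2 ratio of the days was at least 1 higher in stromal cells than in the myocyte class for 652 of 6887 genes (9.47%) and at least 1 lower for 287 (4.17%). Genes had to average 10 CPM in stromal cells only, with no minimum in the myocyte class. For a gene scarce in the myocyte class, the difference is therefore largely its stromal ratio. Among the 1330 genes higher in stromal cells, 466 (35.0%) were in the first group, and among the 611 lower genes, 109 (17.8%) were in the second. The difference contains the same stromal ratio that made these calls, so this overlap is partly built in and is a description. In the myocyte class itself, 652 of 6360 genes were at least 2-fold higher at day 14 (10.3%) and 513 at least 2-fold lower (8.07%); the equal count of 652 above is of differences between the classes, a different quantity.

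Single genes differed in direction between the classes. ENSRNOG00000005695, named here after its values were seen, stood at 999 CPM in stromal cells at day 3 and 5225 CPM at day 14, a log2 ratio of 2.39 (2.38 to 2.40), but at 1494 and 119 CPM in the myocyte class, a ratio of -3.65. It was the more abundant in the myocyte class at day 3 and the more abundant in stromal cells at day 14. Stromal cells were uneven in it: the 10th percentile, median and 90th percentile were 41.8, 461 and 2808 CPM at day 3, and 147, 2683 and 15116 CPM at day 14. In TBX18 stromal cells it stood at 516 and 7695 CPM, a ratio of 3.90, and in the TBX18 myocyte class at 201 and 519 CPM, a ratio of 1.37.

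ENSRNOG00000019328, also named after its values were seen, went the other way. It stood at 200 CPM in stromal cells at day 3 and 46.9 CPM at day 14, a log2 ratio of -2.09 (-2.15 to -2.04), and at 8.51 and 15.3 CPM in the myocyte class, a ratio of 0.85. Among stromal cells thinned to 5000 UMIs, 60.9% had a UMI of it at day 3 and 20.5% at day 14. In TBX18 stromal cells it stood at 180 and 78.0 CPM, a ratio of -1.20. The gene thus stayed more abundant in stromal cells than in the myocyte class at both days, with a smaller gap at day 14.

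The TBX18 stromal cells gave a second pair of days from other libraries. There 1946 of 7027 genes were at least 2-fold higher at day 14 (27.7%) and 395 at least 2-fold lower (5.62%). Of 6747 genes compared in both viruses, 1299 were higher in GFP stromal cells and 1774 in TBX18 stromal cells, and 1108 were higher in both, which is 85.3% of the GFP list and 62.5% of the TBX18 list. TBX18 calls covered 26.3% of the same genes. Of the lower genes, 578 in GFP and 380 in TBX18, 288 were lower in both, which is 49.8% and 75.8%, where TBX18 calls covered 5.63%. Opposite calls numbered 1 among the genes higher in GFP and 5 among the lower. The tables of a day share their format across viruses, and the part of the tables in this overlap was not tested.

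The viruses were also compared after the myocyte class was subtracted; lists called at other rates do not allow a comparison of these overlaps with those above. Of the 6747 genes, the stromal minus myocyte difference was at least 1 in 632 in GFP and 421 in TBX18, with 221 in both (35.0% and 52.5% of each list; 6.24% of the genes compared passed in TBX18). It was at most -1 in 271 and 239, with 77 in both (28.4% and 32.2%, where 3.54% passed in TBX18). The genes were again filtered on their stromal level only. For the collagens the differences in TBX18 were 0.07 for Col1a1, 0.22 for Col1a2 and -0.04 for Col3a1. These genes chose both classes, so their differences are a description.

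**Figure D5:**
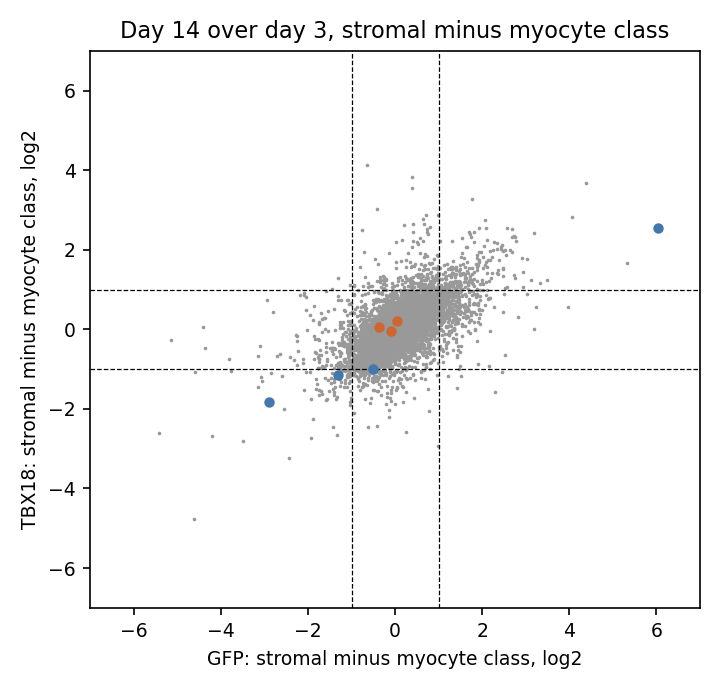
Each gene compared in both viruses, with the log2 ratio of day 14 over day 3 in stromal cells minus that in the myocyte class, for GFP on the x axis and TBX18 on the y axis; dashed lines mark -1 and 1, orange points the 3 collagens and blue points the 4 genes named by ID. The collagens, which chose the classes, lie between -0.36 and 0.03 on the x axis, and 221 genes lie past 1 and 77 past -1 in both. Genes were filtered on their stromal level only.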

How the data were processed

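Single-cell 3' libraries (Chromium, v3.1 chemistry, per the labels' protocols) of 2 GFP cultures were compared, with 2 TBX18 cultures as a second pair. The submitters' processing notes name STAR 2.7.8a, Partek and the build Rnor_6.0, with no roles. The day 3 tables were deposited as estimated counts of UMIs and the day 14 tables as log2 values, judging from the values log2 of CPM plus 1 within each cell. For day 14, UMIs were recovered by undoing the log and taking a cell's most common nonzero value as 1 UMI. Of the GFP day 14 values, 99.7% came out whole within 0.05. The day 3 counts were used as deposited, and 99.7% of the GFP values were whole. On simulated data, recovery in 500 cells returned 100% of counts. In the same comparison over 6181 genes, 100 of 100 genes raised 4-fold and 80 of 80 lowered were called, with 0 unchanged genes called. Both simulated days were drawn from the day 3 profile with counting error alone. The simulated calls therefore check the calculation only, and not differences between cultures or tables.

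Counts were summed unrounded over the cells of a class and divided by that class's total over genes listed in both tables. Printed UMI sums, and the counts used for intervals and thinning, were rounded to whole numbers. Levels of the 6 class genes and of single IDs use all listed features. Called genes pass 2-fold on log2 of CPM plus 0.5 with a mean of at least 10 CPM; ratios of named genes carry no pseudocount, and those of the differences between classes carry 0.5. Intervals are exact Poisson, Clopper-Pearson or conditional binomial at 95%. The 100-gene sets of the class check were the genes with the largest ratio between the classes among those over 50 CPM in the TBX18 library. Single genes were ranked by the end of the interval nearest 0 among genes of at least 20 CPM, the first each way being named, and 2 more were chosen after their values were seen. Doublets were not removed: Scrublet in scanpy 1.11.5 called 0.0615% and 0.0156% of cells, too few to have worked, and leaving out the top 6% of scores is an alternative. Planned lists of pathway genes and of other cell types' markers could not be applied without names. The members, lists and rules were chosen with earlier results of these data known. Python 3.11.15, numpy 2.4.6, scipy 1.17.1 and pandas 2.3.3 were used.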

Additional observations from a re-analysis of the deposited data

Results flagged for a closer look

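Tnnt2 differed in direction between the viruses: its log2 ratio of day 14 over day 3 was 0.54 in GFP stromal cells and -0.13 in TBX18 stromal cells. ENSRNOG00000005695 differed in direction between classes of the GFP libraries, with 2.39 in stromal cells and -3.65 in the myocyte class. ENSRNOG00000019328 did so the other way, with -2.09 in stromal cells and 0.85 in the myocyte class. With 1 library per group, none of these differences was tested.

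Outside the cells kept, 22 of the 731 day 3 barcodes with under 500 genes had a collagen sum over 2 times their myocyte gene sum. They held 38 collagen UMIs in all, which is 271 CPM, with a median of 120.5 genes.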

How the results depend on the processing

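No paired analysis was possible because each group is 1 library. Over 12 alternatives the counts of genes stayed within 1.5 times of 1330 higher and 611 lower, except that no filter on low values gave 2765 and 1015, and a minimum of 100 CPM gave 209 and 164, over more and fewer genes. Stromal shares moved beyond their counting interval to 32.6% and 61.2% with a ratio of 10, and at day 3 to 37.0% without the top 6% of doublet scores. Of 130 values for 11 single genes, 72 stayed within their counting interval, 57 moved and 1 reversed. No filter on low values and the minimum of 100 CPM change only which genes are counted. Single-gene values could not move there, so those stayed by construction. The reversed value was Tnnt2, at -0.11 with a ratio of 10, and it stood at 0.07 without the top doublet scores. The ratio of 10 leaves out by its construction the stromal cells richest in myocyte transcripts. Log2 ratios ranged from 1.54 to 1.78 for Col1a1, 1.44 to 1.65 for Col1a2, 1.34 to 1.53 for Col3a1, 1.45 to 2.63 for Actc1, 1.25 to 2.7 for Myh6 and 1.09 to 1.93 for EGFP. With a pseudocount of 5 CPM, ENSRNOG00000023365 stood at 5.25 and ENSRNOG00000032303 at -7.14. Leaving out low-collagen cells (1329 and 621), the collagens from the total (1463 and 562) and the genes 8-fold apart in all 4 comparisons (1317 and 586) was chosen after seeing the data. Leaving out cells with markers of other cell types was not run, since the markers could not be read. Within the lowest and highest genes and UMIs of the day 14 table at both days, the counts were 1498 and 582, and with cells thinned to 5000 UMIs 1397 and 588.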
